A study of Rattus norvegicus with 18 samples.

Results

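The Cd36 locus of the rat was read as every row of the count table on chromosome 4 whose span overlapped positions 13950000 to 14250000 of the build Rnor_6.0 and that held at least 10 counts over all libraries. These conditions were met by 3 of the 32883 rows, and the window held no further row. The rows carry Ensembl identifiers only, ENSRNOG00000040108, ENSRNOG00000043176 and ENSRNOG00000005906. None of the identifiers in the file could be paired with a gene name (0 matched among 47357 genes of the reference table), so which row is Cd36 itself was not established and each row is called by its identifier. Visceral white adipose tissue (vWAT) was sequenced in 18 male rats, 6 per group, each library being a separate rat. WKY are normotensive Wistar-Kyoto rats, whose age is not given in the sources used here. SHR-Water and SHR-TMAO are spontaneously hypertensive rats that were randomised at 7 to 8 weeks of age and then drank tap water or water with 1 g/L trimethylamine N-oxide (TMAO), a metabolite that the liver makes from a product of gut bacteria, for 22 weeks. Rats were housed 3 to a cage, the cage of each rat is not given, and the substrain of the SHR is not named. The strain comparison and the TMAO comparison are both read here for the locus alone.

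CD36, also called fatty acid translocase, is a class B scavenger receptor of the cell surface. It takes up long-chain fatty acids into adipocytes and muscle, binds oxidised low-density lipoprotein on macrophages and thrombospondin on platelets and endothelium, and its gene is a target of the adipocyte regulator PPARgamma. Some SHR colonies are known to carry a rearranged Cd36 gene that yields no detectable protein, whereas other colonies carry an intact gene.

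The reference lists 4 Cd36-related genes in a row between Gnat3 and Sema3c, namely Cd36, Cd36l1, LOC134486712 and Cd36-ps1. Their start regions are printed because the 3 rows of the count table behaved differently between the strains and the region consists of related copies. Each sequence is RefSeq's, of the build GRCr8, on the plus strand, and runs from 250 bases before to 50 bases after an annotated start. The reference holds 8 such windows for these 4 genes, and only the first listed for each gene was read. What follows holds for those windows only. The locations are chr4:18246332-18246631 for Cd36, chr4:18316556-18316855 for Cd36l1, chr4:18372051-18372350 for LOC134486712 and chr4:18430702-18431001 for Cd36-ps1. This build differs from that of the counts, and no row of the table was tied to any of the 4 genes. Capitals mark bases that were identical in the best local alignment of Cd36l1 with LOC134486712 or of LOC134486712 with Cd36-ps1.
Cd36: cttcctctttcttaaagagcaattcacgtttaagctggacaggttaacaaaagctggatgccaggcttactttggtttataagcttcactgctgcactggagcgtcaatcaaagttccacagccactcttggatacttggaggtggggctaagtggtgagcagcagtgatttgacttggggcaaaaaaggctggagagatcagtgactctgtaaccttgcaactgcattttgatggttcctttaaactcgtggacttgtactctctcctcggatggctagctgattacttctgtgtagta
Cd36l1: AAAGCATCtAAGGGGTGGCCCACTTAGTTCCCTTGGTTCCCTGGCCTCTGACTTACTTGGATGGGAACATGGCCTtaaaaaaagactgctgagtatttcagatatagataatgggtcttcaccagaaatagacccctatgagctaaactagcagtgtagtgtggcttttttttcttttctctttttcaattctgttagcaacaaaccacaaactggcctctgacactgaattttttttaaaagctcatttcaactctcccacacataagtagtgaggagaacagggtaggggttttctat
LOC134486712: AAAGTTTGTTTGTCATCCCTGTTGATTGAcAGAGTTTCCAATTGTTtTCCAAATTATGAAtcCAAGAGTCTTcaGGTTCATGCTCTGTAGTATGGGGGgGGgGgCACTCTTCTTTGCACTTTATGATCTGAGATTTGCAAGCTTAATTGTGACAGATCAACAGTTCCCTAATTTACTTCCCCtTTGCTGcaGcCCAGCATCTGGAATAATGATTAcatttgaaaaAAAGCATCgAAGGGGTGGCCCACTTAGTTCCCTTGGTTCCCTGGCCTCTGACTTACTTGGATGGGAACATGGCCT
Cd36-ps1: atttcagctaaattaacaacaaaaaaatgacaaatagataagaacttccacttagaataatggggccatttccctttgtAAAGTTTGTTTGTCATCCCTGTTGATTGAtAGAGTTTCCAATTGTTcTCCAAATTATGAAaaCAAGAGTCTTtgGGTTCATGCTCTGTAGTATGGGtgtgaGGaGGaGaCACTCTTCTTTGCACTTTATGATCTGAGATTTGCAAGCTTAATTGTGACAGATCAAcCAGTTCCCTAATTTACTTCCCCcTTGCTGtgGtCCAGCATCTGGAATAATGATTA

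Between LOC134486712 and Cd36-ps1, 202 of 221 aligned positions were identical (91.4%). Between Cd36l1 and LOC134486712 the best alignment covered 75 positions, of which 74 were identical (98.7%). The window of Cd36 aligned with the others over at most 17 identical bases, and that of Cd36l1 with Cd36-ps1 over 16. In the windows read, LOC134486712 thus shared a stretch with each of its neighbours among the copies, and that of Cd36 shared none of comparable length. Both long alignments ran to the edges of the windows. The lengths, and the short match of Cd36l1 with Cd36-ps1, therefore depend on where the windows lie. They do not give the extent of likeness between the genes. The letters TATAAA, searched on both strands, were found in the window of Cd36 alone among the 4, and 14.2% of all 33469 windows of this length in the table held them. The letters CCAAT were found in LOC134486712 and Cd36-ps1 and in 37.5% of all windows, and AGGTCA, the core element of nuclear receptor sites, in none of the 4 and in 16.2% of all windows. No motif contains another, and a match of letters is a description of the window only.

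In the annotation behind the counts, all 3 rows lie on the plus strand of chromosome 4 in Rnor_6.0. ENSRNOG00000040108 spans 14001761 to 14249749 and has 40 exons once overlapping entries are merged, with 9993 exonic bases. ENSRNOG00000043176 (14071507 to 14113255, 13 exons, 2526 exonic bases) and ENSRNOG00000005906 (14212925 to 14241272, 14 exons, 2552 exonic bases) both lie inside the span of the first row. The first row thus covers the ground of several genes, and its exons overlap those of the others. ENSRNOG00000043176 shares 1236 of its exonic bases (48.9%) with ENSRNOG00000040108, including 8 identical exons. ENSRNOG00000005906 shares 1240 (48.6%), including 4 identical exons, and the 2 smaller rows share 0 bases with each other. Such overlap on the same strand was present in 814 of 32883 rows (2.48%). The counting command assigned neither reads on exons of more than 1 row nor reads that aligned to several places, so each value below counts reads particular to 1 row and is uncertain where copies are nearly identical.

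**Figure D1:**
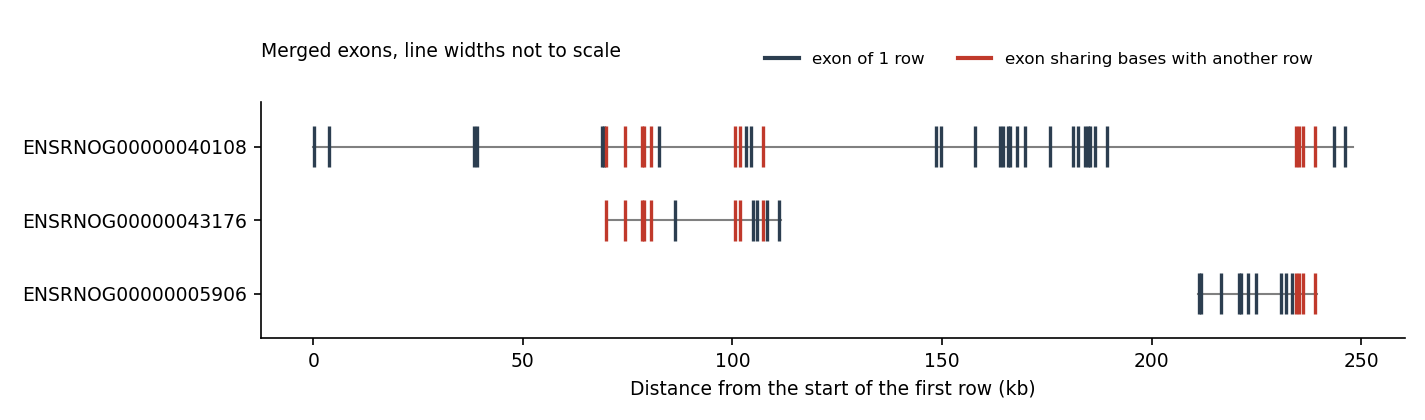
Merged exons of the 3 rows along the locus, with the distance from the start of ENSRNOG00000040108 in kb on the x axis and 1 line per row. Vertical lines mark the centre of each exon (widths not to scale), red where bases are shared with another row; the 8 shared exons of ENSRNOG00000043176 and the 4 of ENSRNOG00000005906 all coincide with exons of the first row.

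Library totals were 10774133 to 18841046 counts in WKY, 14939661 to 17251247 in SHR-Water and 14879416 to 18874161 in SHR-TMAO. Counts of mitochondrially encoded rows made up 7.08 to 20.6% of the library in WKY, 15.5 to 28.5% in SHR-Water and 11.1 to 20.8% in SHR-TMAO. Libraries also differed in how counts leaned towards long genes: at the length of ENSRNOG00000040108 this trend was -0.58 to 0.28 (log2) in WKY, -0.25 to 0.66 in SHR-Water and -0.36 to 0.07 in SHR-TMAO. WKY 2 stood apart, since leaving it out raised the number of genes called between SHR-Water and WKY to 1278, as leaving out SHR-Water 1 raised it to 725. The results for the locus are therefore also given without these rats. Whether the tissue carries the marker genes of adipocytes or of other cells was not checked, since no marker could be found by name.

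ENSRNOG00000040108 was the leading row of the locus by level per length in all 3 groups, and it was several times higher in both SHR groups than in WKY. Levels are given as CPM, counts scaled to a common library size, of a library total normalized by the trimmed mean of M-values (TMM). In WKY the lowest, median and highest rats stood at 161, 188 and 399 CPM. In SHR-Water they stood at 893, 989.8 and 1220 CPM, and in SHR-TMAO at 811, 1173 and 1625 CPM. Every SHR rat lay above every WKY rat, the highest WKY rat being WKY 2, whereas the ranges of the SHR groups overlapped. The group means were 231 ± 94.5 CPM in WKY, 1030 ± 133 CPM in SHR-Water and 1212 ± 327 CPM in SHR-TMAO (SD, n = 6 each). These rest on 1787 to 8207 counts per library in WKY, 12826 to 21545 in SHR-Water and 11733 to 29159 in SHR-TMAO, far above the floor of 3 counts.

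**Figure D2:**
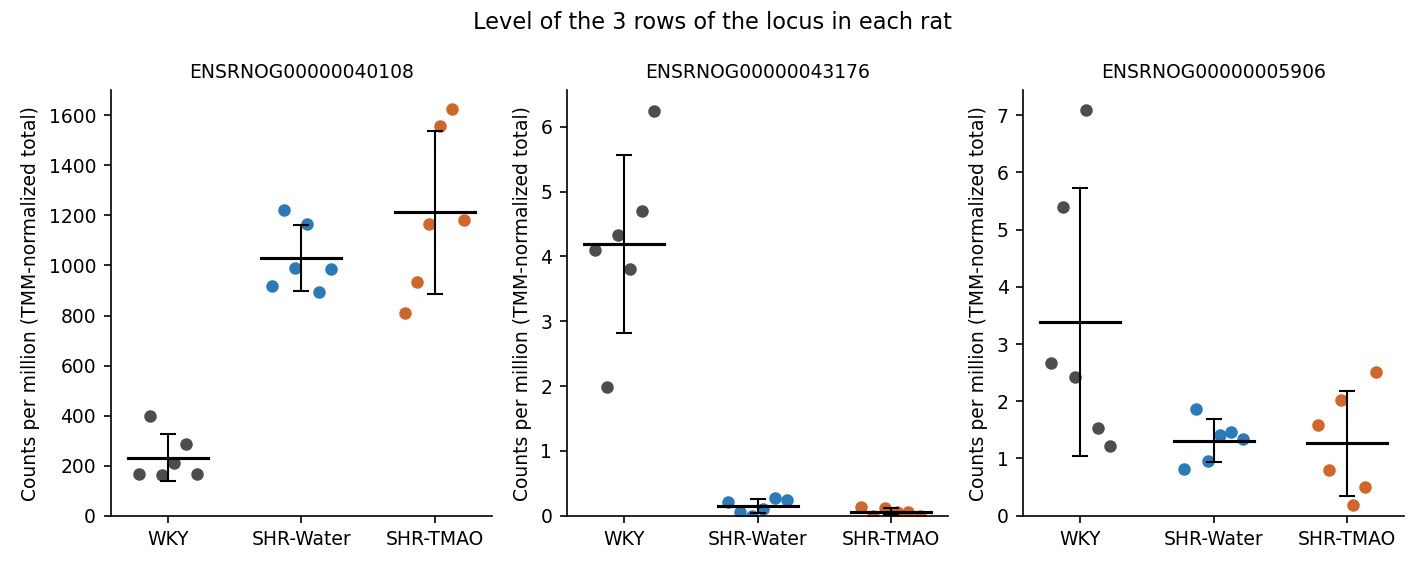
CPM of each row of the locus (y axes, linear and from 0, 1 panel per row) in the 3 groups (x axis). Points are rats, long bars are group means and error bars are SD (n = 6). ENSRNOG00000040108 is higher in every SHR rat than in every WKY rat, ENSRNOG00000043176 is near 0 in all SHR rats, and the groups overlap for ENSRNOG00000005906.

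Per length, ENSRNOG00000040108 reached 23.1 ± 9.46 FPKM (CPM per kilobase of exon) in WKY, 103 ± 13.3 FPKM in SHR-Water and 121 ± 32.7 FPKM in SHR-TMAO. Among the 17545 rows with at least 10 counts it ranked between 1744 and 3600 by FPKM in the WKY rats, between 511 and 921 in SHR-Water and between 554 and 928 in SHR-TMAO. The row thus stood higher in the order of expressed genes in every SHR rat than in any WKY rat. The length used is that of all its merged exons, 9993 bases, of which 2476 are shared with the smaller rows. Since the row covers the ground of several genes, FPKM and ranks describe the row and not a transcript. The length offset used below rests on the same length.

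Between SHR-Water and WKY, ENSRNOG00000040108 was higher by 2.13 on the log2 scale (SE 0.22, 95% interval 1.65 to 2.61), or 4.38-fold, with an edgeR quasi-likelihood adjusted p of 6.22e-05. An exact two-sided permutation test of the row alone gave p = 0.00216, the smallest that 6 against 6 rats allow. A gene was called when its adjusted p was under 0.05 and its log2 fold change was at least 1 either way. By this rule 1.29% of 13017 genes tested were called higher in SHR-Water and 2.13% lower. Of the 3 rows of the locus, all tested, 1 was called higher and 1 lower, the latter having passed the filter on low counts only through WKY. Groups that did not overlap were seen for 1.59% of genes with SHR-Water higher and 2.51% with it lower. Among the 168 genes called higher, ENSRNOG00000040108 had rank 3 by its CPM in SHR-Water and rank 49 by fold change. CPM is not divided by length, so the first rank also reflects the 9993 exonic bases of the row.

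Between SHR-TMAO and WKY the same row was higher by 2.38 on the log2 scale (SE 0.25, 95% interval 1.83 to 2.93), or 5.20-fold, with an edgeR adjusted p of 5.74e-05 and an exact permutation p of 0.00216. This comparison uses the same WKY rats as the one before, so the pair of values are not independent. Called higher in SHR-TMAO were 1.45% of 12833 genes and called lower 2.17%, and groups that did not overlap were seen for 2.03% in the higher and 2.08% in the lower direction. Again 1 of the 3 rows of the locus was called in each direction, the lower one having passed the filter on low counts only through WKY. ENSRNOG00000040108 had rank 4 by CPM, which is not divided by length, and rank 40 by fold change among the 186 genes called higher.

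For ENSRNOG00000040108, leaving out the rats that stood apart could only widen the difference between the strains. WKY 2 was the highest WKY rat for this row, and SHR-Water 1, at 919 CPM, lay below its group mean. Over all fits with 1 rat left out, its lowest log2 fold change was 2.05 for SHR-Water (without WKY 3) and 2.29 for SHR-TMAO (without SHR-TMAO 5). Both stayed called. Without WKY 2 the log2 fold change of ENSRNOG00000040108 was 2.39 for SHR-Water and 2.59 for SHR-TMAO against WKY (edgeR adjusted p = 5.14e-06 and 1.11e-05). Without SHR-Water 1 it was 2.15 (adjusted p = 0.000137), and with mitochondrial rows left out 2.16 for SHR-Water and 2.39 for SHR-TMAO. An offset for the length trend of each library brought it to 1.85 for SHR-Water and 2.52 for SHR-TMAO, and both stayed called. In bulk tissue, a change in the number of cells of a type and a change in RNA per cell cannot be told apart. Strain cannot be told apart from anything else in which the WKY and SHR rats may have differed, such as age.

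ENSRNOG00000043176, the row inside the first part of the locus, went the other way and was nearly absent from SHR. In WKY the lowest, median and highest rats stood at 1.99, 4.21 and 6.25 CPM, from 41 to 98 counts per library. SHR-Water held 0 to 4 counts per library, 14 in all with 1 rat at 0, and SHR-TMAO 0 to 2 counts, 6 in all with 2 rats at 0. Every WKY rat lay above every SHR rat. The means were 4.19 ± 1.38 CPM in WKY, 0.149 ± 0.111 CPM in SHR-Water and 0.062 ± 0.057 CPM in SHR-TMAO (SD, n = 6), while a count of 3, the limit that a count of 0 allows, corresponds to 0.164 to 0.209 CPM in the SHR-Water libraries and 0.161 to 0.216 CPM in the SHR-TMAO libraries. With 4 counts each, 2 SHR-Water rats lay above that limit, and 0 of 6 SHR-TMAO rats did.

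Against WKY, ENSRNOG00000043176 fell by 4.81 on the log2 scale in SHR-Water (SE 0.50, 95% interval -5.89 to -3.73, edgeR adjusted p = 6.22e-05). In SHR-TMAO it fell by 5.94 (SE 0.51, 95% interval -7.03 to -4.85, adjusted p = 5.28e-06). The size of these fitted values rests on very few SHR counts. The counts summed over each group gave a ratio of WKY to SHR-Water of 28.8 (exact 95% interval 17.0 to 53.2, for 369 against 14 counts) and of WKY to SHR-TMAO of 66.7 (30.4 to 183, for 369 against 6 counts), each per normalized library total and for counting error only. The exact permutation test of the row gave p = 0.00216 for both. The row passed the filter on low counts only through WKY, so among tested rows its groups had to differ. Its p-values are therefore given as a description only. Without WKY 2, the lowest WKY rat for this row, the log2 fold changes were -4.93 and -6.08.

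ENSRNOG00000005906, at the far end of the locus, had few counts in every group. In WKY the lowest, median and highest rats stood at 1.21, 2.55 and 7.09 CPM, in SHR-Water at 0.822, 1.38 and 1.87 CPM, and in SHR-TMAO at 0.189, 1.19 and 2.52 CPM. The groups overlapped, and the high WKY values came from WKY 2 and WKY 4 with 111 and 110 counts against 19 to 30 in the other 4. Means were 3.39 ± 2.34, 1.31 ± 0.376 and 1.27 ± 0.916 CPM. The log2 fold change against WKY was -1.39 in SHR-Water (SE 0.42, edgeR adjusted p = 0.0673) and -1.43 in SHR-TMAO (SE 0.56, adjusted p = 0.138), so neither passed the threshold. Exact permutation tests of the row, not adjusted, gave p = 0.0281 and 0.0476. The exact permutation p rose above 0.05 when single rats were left out, among them WKY 2 and WKY 4 (0.0563 for each in SHR-Water and 0.0952 for each in SHR-TMAO). DESeq2 called the row in SHR-Water against WKY (adjusted p = 0.0192).

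The makeup of the assigned counts of the locus therefore differed between the strains. Reads on shared exons and reads that aligned to several places are not among these counts. Whether the strains differ in which reads are particular to 1 row was not tested. ENSRNOG00000040108 took 95.1 to 98.2% of the counts of the 3 rows in WKY rats, 99.81 to 99.90% in SHR-Water and 99.79 to 99.98% in SHR-TMAO. ENSRNOG00000043176 took 0.49 to 3.58% in WKY and at most 0.031% in SHR. Per length, the smaller rows stood at 1.66 ± 0.545 FPKM (ENSRNOG00000043176) and 1.33 ± 0.916 FPKM (ENSRNOG00000005906) in WKY, so even there the leading row was well above both. Divided by the bases that no other row shares in place of the full length, the WKY means became 30.8, 3.25 and 2.58 CPM per kilobase for the first, second and last row, in the same order. The leading row rose from 103 to 137 in SHR-Water and from 121 to 161 in SHR-TMAO. Over the 3 rows and 3 groups, 8 of these levels moved by more than 1 SD and 1, that of the leading row in WKY, did not. The values per length thus depend on the length chosen.

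No row of the locus passed the test between SHR-TMAO and SHR-Water. ENSRNOG00000040108 differed between SHR-TMAO and SHR-Water by a log2 fold change of 0.27 (SE 0.17, 95% interval -0.11 to 0.64, edgeR adjusted p = 0.349), or 1.20-fold with an interval of 0.929 to 1.56. The exact permutation p was 0.277. SHR-TMAO rats were spread more widely, with 2 rats at 1558 and 1625 CPM above every SHR-Water rat and 1 at 811 CPM below all of them. Called higher in SHR-TMAO were 0% of 12852 genes and called lower 0%, with 3212 at an unadjusted p under 0.05, while DESeq2 called 405 genes and limma 1087. This background rests on single rats, since edgeR called 685 genes without SHR-Water 1, 442 without SHR-TMAO 1 and 2 without SHR-TMAO 2. Of the 2 rows of the locus that edgeR tested, 0 were called and 0 had an unadjusted p under 0.05, and DESeq2 and limma also called 0. With the length offset, the log2 fold change of ENSRNOG00000040108 was 0.67 (adjusted p = 0.124).

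ENSRNOG00000043176 did not pass the count filter between the SHR groups, and its exact permutation p was 0.139 for a difference of -0.11 on the log2(CPM + 1) scale. No fold is given because most rats of both groups lie at or under 3 counts. ENSRNOG00000005906 had a log2 fold change of -0.02 (SE 0.47, 95% interval -1.03 to 1.00, adjusted p = 0.990). The interval of the leading row leaves room for a moderate rise, and that of ENSRNOG00000005906 for a change of about 1 on the log2 scale either way.

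Outside the window, no neighbouring row was called by edgeR. Within 2 Mb on either side lay 15 rows, of which 6 had at least 10 counts and 4 were tested by edgeR. Of the 4, edgeR called 0 in each of the 3 comparisons, with 3, 1 and 1 at an unadjusted p under 0.05 in SHR-Water against WKY, SHR-TMAO against WKY and SHR-TMAO against SHR-Water. Limma, on 4 rows, called 2, 0 and 1. DESeq2 tested 6, 6 and 5 rows and called 0 in each, with 4, 1 and 2 at an unadjusted p under 0.05. In edgeR the log2 fold changes of the 4 rows ran from -1.36 to 1.36 between SHR-Water and WKY (lowest adjusted p = 0.140), from -0.82 to 0.35 between SHR-TMAO and WKY (0.0654) and from -1.03 to 0.61 between the SHR groups (0.183). With 4 rows tested, and 1.29% and 2.13% of all genes called, a count of 0 is no contrast with the locus.

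**Figure D3:**
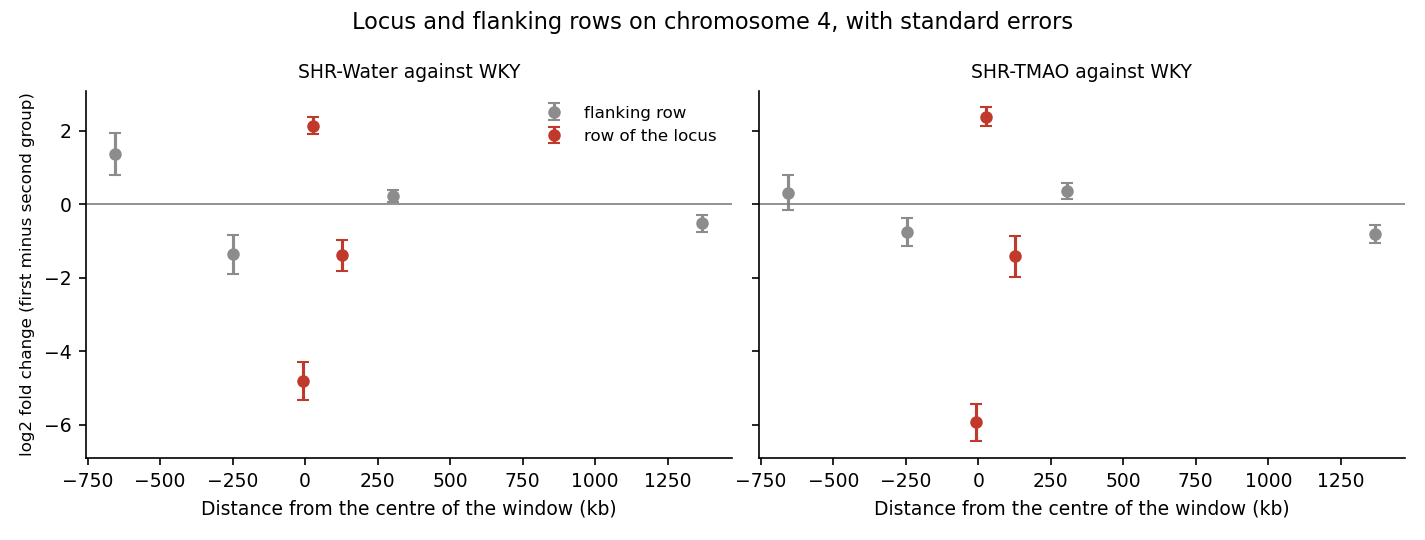
Log2 fold change (y axis, points with SE) against the distance from the centre of the window in kb (x axis), with 1 panel for each SHR group against WKY. Red points are the 3 rows of the locus and grey points the 4 tested flanking rows; 1 red point lies at 2.13 (left) and 2.38 (right), 1 at -4.81 and -5.94, and the grey points lie between -1.36 and 1.36.

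Over the 18 libraries, the 5 genes whose log2(CPM + 1) followed that of ENSRNOG00000040108 most closely had Pearson r of 0.950 to 0.971. The points share libraries and 3 groups, and all 5 genes had higher means in both SHR groups than in WKY. The first was ENSRNOG00000023116 on chromosome 6, with 18.4 ± 4.44 CPM in WKY, 89.8 ± 20.1 CPM in SHR-Water and 106 ± 19.6 CPM in SHR-TMAO. Within the groups its r with ENSRNOG00000040108 was 0.927, 0.838 and 0.262 over 6 rats each. For the other 4 genes it ran from -0.127 to 0.809 in WKY, from -0.55 to 0.953 in SHR-Water and from -0.459 to 0.934 in SHR-TMAO, and 3 of these 4 had a negative r in at least 1 group. The others are on chromosomes 1, 3 and 20, so none of the 5 lies near the locus. By Spearman's rho 1 of the 5 was again among the closest, and with group means subtracted 0 of 5.

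Over 21 alternatives per comparison the log2 fold change of ENSRNOG00000040108 stayed between 1.85 and 2.39 for SHR-Water and between 2.29 and 2.67 for SHR-TMAO against WKY. It was called in each of these fits. The fitted log2 fold change of ENSRNOG00000043176 ran from -5.73 to -4.55 and from -6.26 to -5.67, which is given as a description because the row entered the tests only through its WKY counts.

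**Figure D4:**
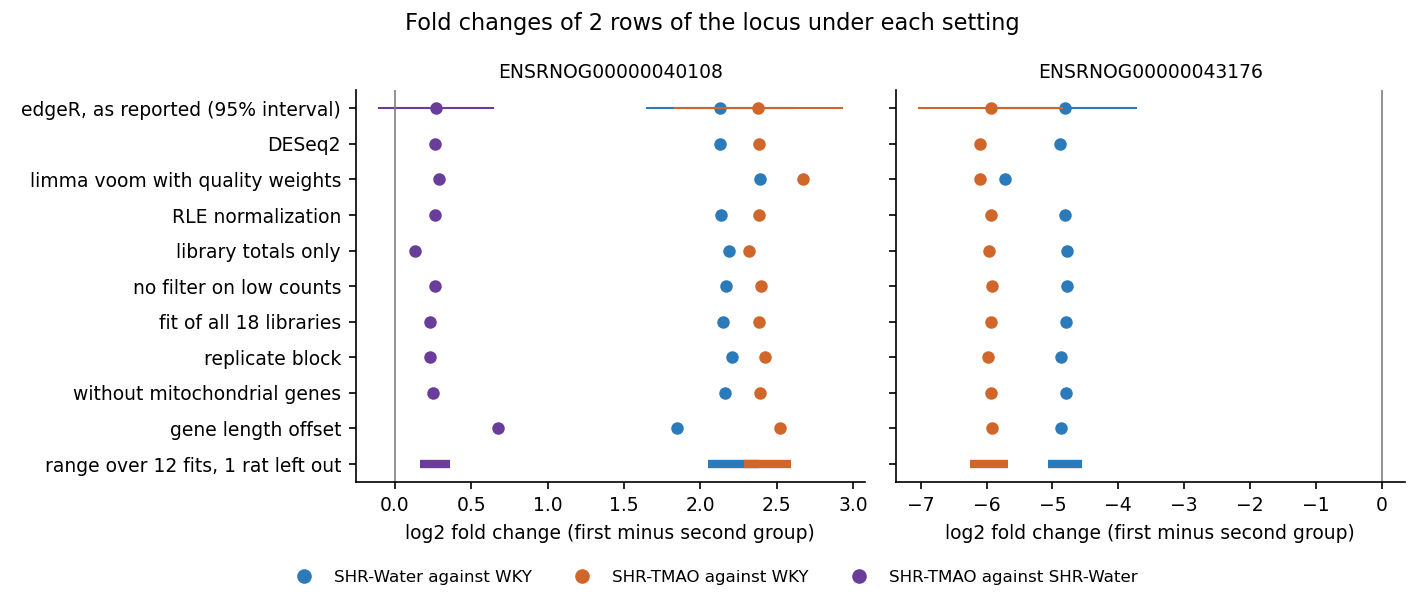
Log2 fold change (x axis) of ENSRNOG00000040108 (left) and ENSRNOG00000043176 (right) under each setting (y axis), coloured by comparison. The top line has the 95% interval, and bars in the last line are ranges over fits that left out 1 rat; the values of ENSRNOG00000040108 against WKY keep their sign under every setting shown, and its SHR-TMAO values against SHR-Water lie between 0.13 and 0.67.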

How the data were processed

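The authors trimmed reads with cutadapt 2.5, aligned them with HISAT2 2.1.0 and counted them with featureCounts 1.6.3 on exons of the Ensembl release 96 annotation of Rnor_6.0, with the reverse-strand setting, per the file headers and the submitters' processing notes. GENCODE is the annotation named in the study's methods. Each deposited value is a raw whole-number count for 1 gene in 1 rat, with no normalization. The library totals of 10774133 to 18874161 counts limit the precision of rows with few counts. Intervals on counts cover counting error only. The labels gave group and replicate number, and no pair of libraries within a group agreed within sampling noise.

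Each pair of groups was fitted on its 12 rats with edgeR 4.0.16 in R 4.3.3 (TMM, filterByExpr, quasi-likelihood test, Benjamini-Hochberg adjustment over all genes tested), after a test on simulated data. A gene was called by the study's thresholds, an adjusted p under 0.05 with a log2 change of 1 or more in size. Standard errors were derived from the F statistic. Single rows were tested with exact two-sided permutation tests of mean log2(CPM + 1). Alternatives were DESeq2 1.42.0, limma 3.58.1 with voom and quality weights, other normalizations and filters, offsets for gene length, leaving out mitochondrial rows or each rat, and a replicate block. Level per unshared base and the alternatives of the permutation tests and of the counts of groups that do not overlap were added after seeing the data. Promoters were aligned with Biopython 1.88.

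Every row of the locus is named. Of the 5 genes most like the leading row only the first is named, since identifiers without gene names say little. The members and lists were chosen with earlier results of these data known. Lists of fatty acid uptake, triglyceride synthesis, fatty acid oxidation, Cd36 regulators and ligands, and of cell type markers, were not read, because 0 identifiers matched the reference table.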

Additional observations from a re-analysis of the deposited data

Results flagged for a closer look

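No row of the locus had a rat that stood apart within its group by Dixon's test at 95%. Among 27 groups of 6 rats looked at, over the rows of the locus and 6 flanking rows, 4 were marked by that test, all in flanking rows and all in WKY, where chance marks about 1 in 20. WKY 2 was highest for ENSRNOG00000060937 at 0.583 CPM, with the other WKY rats at 0 to 0.09 CPM. WKY 2 was also highest for ENSRNOG00000057096 at 68.3 CPM, with the others at 9.08 to 20.9 CPM. WKY 6 was highest for ENSRNOG00000005268 at 2.55 CPM, with the others at 0.709 to 1.25 CPM. WKY 3 was lowest for ENSRNOG00000006526 at 102 CPM, with the others at 155 to 178 CPM.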

How the results depend on the processing

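Of the 3 rows of the locus, 2 were called under every alternative against WKY except DESeq2 and the fit without WKY 6 in SHR-Water against WKY, which called 3. Among these 2, ENSRNOG00000043176 entered the main tests only through its WKY counts, so its calls are a description. Between the SHR groups 0 were called under every alternative. The number of genes called in the whole table also depended on the setting, and a count of at most 3 rows cannot be compared with it. Between SHR-Water and WKY it was 445, against 798 with no fold limit, 865 with DESeq2, 1649 with limma, and 337 to 1278 with 1 rat left out. Between SHR-TMAO and WKY it was 464, against 995 with no fold limit, 802 with DESeq2 and 736 with limma. Between the SHR groups it was 0, against 405 with DESeq2, 1087 with limma, 1 in the fit of all 18 libraries, and 0 to 685 with 1 rat left out (685 without SHR-Water 1, 442 without SHR-TMAO 1, 2 without SHR-TMAO 2). The cause was not tested.

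For ENSRNOG00000005906, DESeq2 (adjusted p = 0.0192) and the fit without WKY 6 (adjusted p = 0.041) called the difference between SHR-Water and WKY. Its log2 fold change between the SHR groups turned from -0.02 to 0.05 (0.048) with the length offset, and with 1 rat left out it ran up to 0.206 (from -0.331, with the sign turned at 0.007 to 0.206); its difference on the log2(CPM + 1) scale ran from -0.265 to 0.048 with 1 rat left out. For ENSRNOG00000043176 between the SHR groups, the exact permutation p was 0.0476 without SHR-Water 3.

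Same-numbered rats of different groups did not deviate together in every pair (correlation over 0.1 in 5, 1 and 0 of 6 pairs). Rats with different numbers were not compared, so whether the numbers pair the rats was not settled. The main fits use no pairing. With a replicate block the genes called were 591, 341 and 0, and the log2 fold changes of ENSRNOG00000040108 were 2.21, 2.42 and 0.23 in the order above, with no change of call. Rows with few counts are limited by depth.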
